A study of Rattus norvegicus with 30 samples.

Results

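Oxidative phosphorylation was followed here through 80 nuclear genes named for subunits of the mitochondrial respiratory chain and of ATP synthase, out of 14217 genes with a probe set of their own on the array. A gene was a member when a probe set carried its symbol alone and that symbol belonged to the Nduf, Sdh, Uqcr, Cyc1, Cox or Atp5 subunit families, and it was represented by the probe set with the highest mean over all 30 arrays. The rule used symbols and mean brightness and no response to the drug, but it was set with earlier results of these data known. By symbol 35 genes belonged to complex I, 4 to complex II, 8 to complex III, 17 to complex IV and 16 to complex V. A further 7 probe sets carried several symbols and were left out, so Atp5mc1, Atp5mc2, Cox7a2, Uqcrb, Ndufs5 and Ndufa10 were not measured here and Cox5a was measured by a dim probe set.

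The study gave female DA rats, 10 weeks old, a single intraperitoneal dose of irinotecan (200 mg/kg) under light halothane, and collected whole stomach, jejunum and colon 1, 6, 24 or 72 h later. Untreated rats of the same strain, sex and age, killed at 0 h, were the controls. Each time had 6 rats, and the RNA of 3 of them was pooled for each array, so every tissue and time had 2 arrays and each rat contributed stomach, jejunum and colon. The pools of a group hold different rats, so the spread between arrays is that of pools and not of single animals. All values are log2 signals of an Affymetrix rat expression array, on which a difference of 1 is a doubling, and they compare arrays for a given probe set and not transcript amounts between genes.

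Irinotecan is a prodrug whose active form traps topoisomerase I on DNA, and damage to the gut lining with diarrhoea limits its use in patients. In mitochondria complex I takes electrons from NADH and complex II takes them from succinate, both pass them by ubiquinone to complex III, and cytochrome c carries them to complex IV, where oxygen is reduced. The proton gradient that complexes I, III and IV build drives ATP synthase, complex V. Gastric parietal cells, which secrete acid, are unusually rich in mitochondria, absorptive enterocytes use ATP for solute transport, and both lie in tissues sampled here with their muscle wall.

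Signals for the members were mostly high, and 67 of the 80 stood in the brightest 5 percent. Comparisons below with all probe sets therefore set mostly bright genes beside mostly dimmer probe sets. They do not separate the members from other bright probe sets. The mean over all arrays exceeded 9 for 72 of the 80 genes and lay under the median of all probe sets for 5, among them Cox7b2 (5.77), Cox6b2 (6.18) and Cox8b (6.60), whose dim probe sets give less precise changes. The tissue labels matched their markers: the list of gastric parietal cell genes had medians of 11.21 to 12.06 in stomach, 7.01 to 7.38 in jejunum and 6.64 to 8.69 in colon, and the enterocyte list had medians of 13.04 to 13.44 in jejunum, 7.01 to 9.08 in stomach and 7.06 to 9.48 in colon. Colonocyte genes had medians of 12.23 to 12.65 in colon, 8.77 to 10.47 in jejunum and 6.64 to 7.10 in stomach. Some arrays stood apart. Genes of the pancreatic acinar cell had medians of 13.29 on the first stomach array at 72 h, 11.91 on the second colon array at 72 h and 9.23 on the first colon array at 6 h, and the first colon array at 24 h had the highest colon signal for 3 of 4 gastric chief cell genes. On the first arrays of 24 h the GAPDH control probe sets for the 3′ end of the transcript exceeded those for the 5′ end by 0.557 in stomach, 0.816 in jejunum and 0.346 in colon, and the gap on the second colon array at 24 h was 0.385 and on the first jejunum array at 6 h 0.381, against 0.292 at most on the other arrays. A larger gap is read as a sign of shorter RNA.

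The promoters of 4 members on which the results below turn are shown first, read from RefSeq's GRCr8 table, which covers 250 bases before to 50 bases after each gene's start and held 71 of the 80 members. Short words known as recognition sequences of regulators of mitochondrial genes were searched on both strands, namely GCGCA followed by any base and GCGC for NRF1, CCGGAAG for ETS factors such as GABPA, and AAGGTCA for the oestrogen-related receptors. Capitals mark these words or their reverse complements. Cox8a and Sdha hold 3 words each, and the muscle-type isoform genes Cox7a1 and Cox6a2 hold none in this window. Cox8a, Sdha and Cox7a1 were all called lower in jejunum at 72 h, so promoters with and without the words occur among the genes called. The sequences run 5′ to 3′ on each gene's own strand and cover chr1:213833574-213833873 (minus strand) for Cox8a, chr1:30764303-30764602 (plus) for Sdha, chr1:94568966-94569265 (plus) for Cox7a1 and chr1:192219667-192219966 (minus) for Cox6a2.
Cox8a: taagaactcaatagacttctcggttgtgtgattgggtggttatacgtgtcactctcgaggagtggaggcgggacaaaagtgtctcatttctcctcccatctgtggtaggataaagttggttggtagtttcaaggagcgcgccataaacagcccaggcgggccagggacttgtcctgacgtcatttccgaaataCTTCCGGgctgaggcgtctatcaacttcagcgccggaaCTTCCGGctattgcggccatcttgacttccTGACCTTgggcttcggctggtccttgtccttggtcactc
Sdha: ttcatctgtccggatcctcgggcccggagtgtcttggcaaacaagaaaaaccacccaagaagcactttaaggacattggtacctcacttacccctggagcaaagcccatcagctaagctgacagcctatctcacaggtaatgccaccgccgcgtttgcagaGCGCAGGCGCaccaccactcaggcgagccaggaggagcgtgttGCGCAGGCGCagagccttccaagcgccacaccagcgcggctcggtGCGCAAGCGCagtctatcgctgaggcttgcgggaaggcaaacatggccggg
Cox7a1: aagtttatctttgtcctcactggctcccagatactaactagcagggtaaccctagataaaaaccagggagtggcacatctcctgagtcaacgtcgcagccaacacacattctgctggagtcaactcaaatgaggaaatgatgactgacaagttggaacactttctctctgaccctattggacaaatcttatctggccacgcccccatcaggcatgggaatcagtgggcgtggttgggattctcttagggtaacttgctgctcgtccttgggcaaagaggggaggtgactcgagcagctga
Cox6a2: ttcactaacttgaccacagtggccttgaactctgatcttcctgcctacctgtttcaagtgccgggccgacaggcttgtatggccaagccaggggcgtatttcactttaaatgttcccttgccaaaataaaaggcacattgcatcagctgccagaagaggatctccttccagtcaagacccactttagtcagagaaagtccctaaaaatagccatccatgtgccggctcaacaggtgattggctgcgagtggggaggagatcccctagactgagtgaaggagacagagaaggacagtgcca

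Over the 71 matched members 13 promoters (18.3%) held the NRF1 word, 20 (28.2%) the ETS word and 11 (15.5%) the receptor word. Over the 13191 promoters of all measured genes the shares were 7.88%, 14.2% and 3.31%. At least 1 of the words stood in 34 member promoters (47.9%), against 23.1% of promoters of measured genes and 16.5% of the 33365 in the table. By complex this was 14 of 33 for complex I, 3 of 4 for complex II, 4 of 6 for complex III, 3 of 13 for complex IV and 10 of 15 for complex V. A match is a description of letters and not a site or a cause, and no match says only that the letters are not in this window.

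Before treatment the muscle-type subunit Cox7a1 separated the 3 tissues most. Cox7a1, the isoform of subunit 7a known from heart and skeletal muscle, had signals of 7.75 and 7.68 in stomach, 11.27 and 11.27 in jejunum and 10.13 and 10.05 in colon. The pools of the 3 tissues did not overlap, with jejunum highest and stomach lowest. The difference of stomach minus jejunum was -3.55 ± 0.26 (SE), a signal 11.7 times lower in stomach (limma, adjusted p = 2.59e-09), that of stomach minus colon was -2.37 ± 0.26 (adjusted p = 1.19e-06) and that of jejunum minus colon was 1.18 ± 0.26 (adjusted p = 0.00143). The smooth muscle list ran otherwise: its medians on the untreated arrays were 11.93 and 12.39 in stomach, 10.11 and 10.26 in jejunum and 12.18 and 12.08 in colon. Each of its 10 genes read lower on both untreated jejunum arrays than on the untreated arrays of stomach and of colon. In these bulk samples fewer cells of a type and less RNA per cell cannot be told apart.

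Ndufa4, first described in complex I and known to sit in complex IV, ran in another order. It had signals of 12.68 and 12.61 in untreated stomach, 11.92 and 11.91 in jejunum and 11.45 and 11.49 in colon. Stomach was highest and colon lowest, with no overlap of arrays. The differences were 0.73 ± 0.16 for stomach minus jejunum (adjusted p = 0.00144), 1.17 ± 0.16 for stomach minus colon (adjusted p = 1.49e-05) and 0.45 for jejunum minus colon (adjusted p = 0.0275).

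Complex I supplied most of the members that were higher in untreated stomach than in colon. In that comparison 17 members were called higher and 3 lower at an adjusted p under 0.05, beside 18% and 15.1% of all 31042 probe sets in the same directions and 33.1% in either. Complex I by symbol gave 13 of the 17, Ndufa4 included, and none of its 35 genes was called lower. Of these Ndufv2, which carries an iron-sulfur cluster beside the NADH site, belongs to the catalytic core, and most others are accessory subunits of the membrane arm. The stomach minus colon differences were 0.52 for Ndufb7 (adjusted p = 0.00118), 0.37 for Ndufb1 (0.00302), 0.74 for Ndufb10 (0.0174), 0.38 for Ndufv2 (0.02) and 0.53 for Ndufa12 (0.044). In complex IV the muscle isoform Cox6a2 differed by 1.12 ± 0.36 (adjusted p = 0.0221), and the dim isoform genes Cox6b2, known from testis, and Cox4i2, known from lung and from low oxygen, by 0.65 (adjusted p = 0.0019) and 0.61 (adjusted p = 0.00215). Besides Cox7a1 the members called lower in stomach were the complex II anchor Sdhd, by -0.31 (adjusted p = 0.0409), and the complex IV subunit Cox5a, by -0.44 (adjusted p = 0.043), and both missed the threshold after quantile normalization (adjusted p = 0.24 and 0.0984). The median difference of the 80 members was 0.18, against 0.06 over all probe sets.

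Jejunum stood above stomach for 3 of the 4 subunits of succinate dehydrogenase. Sdha, the flavoprotein that oxidizes succinate, had signals of 11.61 and 11.50 in untreated stomach and 12.09 and 11.89 in untreated jejunum. Sdhb, its iron-sulfur partner, had 11.96 and 11.91 in stomach and 12.63 and 12.62 in jejunum, and the anchor Sdhd averaged 11.96 in stomach and 12.36 in jejunum. Each stomach array lay below each jejunum array for all 3 genes. The differences of stomach minus jejunum were -0.44 ± 0.10 for Sdha (limma, adjusted p = 0.00323), -0.69 ± 0.25 for Sdhb (0.0388) and -0.41 for Sdhd (0.00941). Those of Sdha and Sdhd missed the threshold after quantile normalization (adjusted p = 0.0786 and 0.113). That of Sdhb missed it in a fit of the 2 tissues compared (0.075) and without the arrays with pancreatic transcripts (0.0531). The anchor Sdhc had 11.63 and 11.50 in stomach and 11.76 and 11.56 in jejunum, which overlapped (-0.10, adjusted p = 0.648). Against colon jejunum was higher by 0.30 for Sdha (adjusted p = 0.0265, and 0.0896 after quantile normalization) and by 0.79 ± 0.25 for Sdhb (adjusted p = 0.0143).

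Over all members 7 were called higher and 8 lower in stomach than in jejunum, beside 17.3% and 14.9% of all probe sets and 32.2% in either direction, and after quantile normalization the calls split into 18 higher and 4 lower. The members called lower included the complex III core subunit Uqcrc1 (-0.30, adjusted p = 0.0386) and the accessory subunit Ndufa6 (-0.35, adjusted p = 0.0236), both of which missed the threshold under quantile normalization (0.33 and 0.105). Those called higher included Ndufa1, an accessory subunit needed to assemble complex I, with signals of 12.91 and 12.91 in stomach and 12.27 and 12.32 in jejunum, a difference of 0.62 ± 0.09 (adjusted p = 2.54e-05). Between jejunum and colon 12 members were called higher and 2 lower, beside 25.8% and 19.9% of all probe sets and 45.7% in either direction. The jejunum minus colon differences were 0.57 for Atp5po, the ATP synthase subunit that joins its head to its stalk (adjusted p = 0.00593), 0.36 for Cyc1, cytochrome c1 of complex III (0.0321), 0.26 for Ndufb3 (0.00726), -0.38 ± 0.09 for Ndufa1 (0.00233) and -0.30 for Cox7a2l, a factor of respiratory supercomplexes (0.0253). In all 3 comparisons the share of members called lay below that of all probe sets. Arrays of different tissues share rats, which the fit treats as independent, and leaving out either array of a tissue left 6 to 9 calls for stomach against jejunum, 7 to 13 for stomach against colon and 3 to 6 for jejunum against colon.

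**Figure D1:**
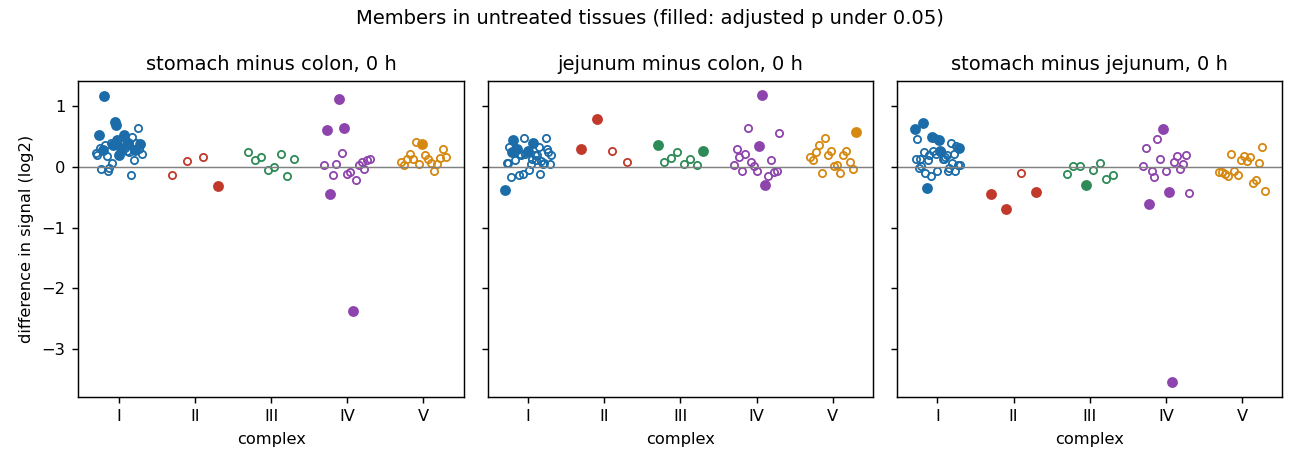
Difference in log2 signal between untreated tissues for the 80 genes, by complex (2 arrays a tissue), as stomach minus colon, jejunum minus colon and stomach minus jejunum. Each point is a gene, filled where limma's adjusted p was under 0.05. Cox7a1 lies farthest below 0 in both stomach comparisons, at -3.55 and -2.37.

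At 1 h after irinotecan no member passed the threshold in any tissue. Limma called 0 of 80 members in stomach (0.0161% of all probe sets), 0 in jejunum (0.0354%) and 0 in colon (0%), and at an unadjusted p under 0.05 it gave 1, 0 and 2 members, beside 5.72%, 4.73% and 14.9% of all probe sets. The largest difference in stomach was that of Atp5if1, the inhibitor that binds ATP synthase when the gradient fails. Its signals were 10.58 and 10.67 at 1 h and 11.40 and 11.52 at 0 h, and the difference of -0.84 ± 0.37 had an adjusted p of 0.871. The groups did not overlap, but the spread of Atp5if1 over the stomach arrays was wide, and at 24 h its arrays read 10.19 and 11.59. Uqcrc1 differed by 0.28 in stomach (adjusted p = 0.896), -0.09 in jejunum and -0.26 in colon (adjusted p = 0.312). The limma test of whether these 3 changes differed gave an adjusted p of 0.433. The median difference of the 80 members was -0.03 in stomach, -0.06 in jejunum and -0.07 in colon.

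At 6 h the members lay slightly below the untreated level in all 3 tissues, and none passed the threshold. Median differences were -0.15 in stomach, -0.16 in jejunum and -0.16 in colon, against 0.01, -0.02 and 0.03 over all probe sets. Most probe sets are dimmer than the members, and whether other bright ones shifted alike was not tested. The count below 0 was 69 of 80 in stomach (47.2% of all probe sets), 72 in jejunum (55.2%) and 71 in colon (44.2%). The count of genes whose treated arrays both lay under both 0 h arrays was 52 in stomach (21.6% of all probe sets), 60 in jejunum (33.3%) and 58 in colon (21.6%). These comparisons use the same 0 h pools as the other times of a tissue, so the times are not independent of one another. Limma called 0 members in stomach (0.0322% of all probe sets), 0 in jejunum (3.49%) and 0 in colon (1.19%), with 6, 7 and 9 members at an unadjusted p under 0.05, beside 8.83%, 19.9% and 14.1% of all probe sets. Leaving out the first jejunum array of 24 h, which sets part of the spread in that tissue, gave 8 calls in jejunum at 6 h, beside 13.6% of all probe sets, which is no excess.

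Complex I had the lowest medians of the 5 complexes in stomach (-0.21) and jejunum (-0.23) at 6 h, and complex II the lowest in colon (-0.20), where complex I stood at -0.19. Complex IV had the smallest shifts, with medians of -0.05, -0.09 and -0.03. These medians include the dim probe sets of Cox4i2, Cox5a, Cox6a2, Cox6b2, Cox6c-ps1, Cox7b2 and Cox8b, and most dim members belong to this complex. In colon the smallest p was that of Ndufs4, a subunit of the NADH-oxidizing arm whose loss causes Leigh syndrome in people. Ndufs4 had signals of 8.98 and 9.21 at 6 h and 9.63 and 9.53 at 0 h, so the groups did not overlap, and a difference of -0.49 ± 0.11 (adjusted p = 0.0819). Ndufs1, the large iron-sulfur subunit of the same arm, differed by -0.45 (adjusted p = 0.149) and Ndufs3, a core subunit near the quinone site, by -0.46 (adjusted p = 0.256). In stomach the smallest p values belonged to Ndufv2 (-0.35, adjusted p = 0.486), Ndufb3 (-0.23, 0.525) and Ndufa6 (-0.28, 0.53), and in jejunum to Cox6a2, described further on, Ndufb1 (-0.29, 0.128) and Ndufb3 (-0.22, 0.165).

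At 24 h the median difference was larger in each tissue, most so in jejunum, and the replicate arrays disagreed on its size. Medians were -0.24 in stomach, -0.40 in jejunum and -0.21 in colon, against 0.02, -0.01 and 0.03 over all probe sets. As at 6 h, a shift shared with other bright probe sets was not tested. The count below 0 was 69 of 80 in stomach (45.2% of all probe sets), 77 in jejunum (53.4%) and 75 in colon (44.7%). Both treated arrays lay under both untreated ones for 44 members in stomach (16.5%), 63 in jejunum (23.5%) and 50 in colon (21.4%). Limma called 0 members in stomach (0.0161%), 1 in jejunum (0.409%) and 0 in colon (1.14%). At an unadjusted p under 0.05 it gave 17 members in stomach (8.34% of all probe sets), 58 in jejunum (16%) and 24 in colon (16.7%).

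The first array of each tissue carried most of this difference. Relative to the 0 h mean the median member stood at -0.41 on the first stomach array and -0.06 on the second, at -0.57 and -0.23 in jejunum, and at -0.30 and -0.11 in colon. The first 24 h array was the lowest of the 10 arrays of its tissue for 61 members in stomach, 54 in jejunum and 52 in colon, beside 14.5%, 14.5% and 12.7% of all probe sets. The GAPDH gaps of these arrays were 0.557, 0.816 and 0.346. In colon the second 24 h array, with the smaller change of -0.11, had the larger gap of 0.385. The first 24 h arrays also had the highest signal of their tissue for 8 of 10 smooth muscle genes in stomach, 7 of 10 in jejunum and 8 of 10 in colon. In stomach 0 of 7 genes of the parietal list were called at 24 h, beside 0.0161% of all probe sets, so that count says little. The summed log2 signals of the parietal list were 14.63 and 14.92 at 24 h and 15.09 and 14.94 at 0 h. The lowest log2 signal of any probe set was 3.53, so these values cannot show whether a marker was absent. The part of RNA length, of muscle and of parietal cells in these values was not tested.

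**Figure D2:**
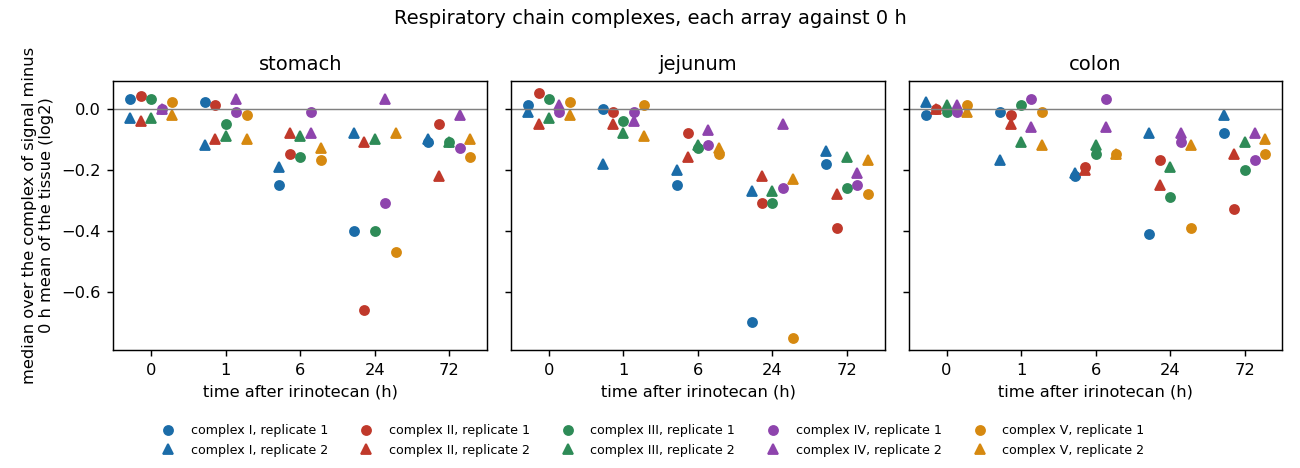
Median change of the genes of each complex from the mean of the 0 h arrays (log2), for each of the 10 arrays of stomach, jejunum and colon over the 5 times. Circles are replicate 1 and triangles replicate 2. The lowest points are those of the first arrays at 24 h, with medians over all 80 genes of -0.41, -0.57 and -0.30, except for complex II in jejunum and complexes II and IV in colon, which were lowest on the first 72 h arrays.

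**Figure D3:**
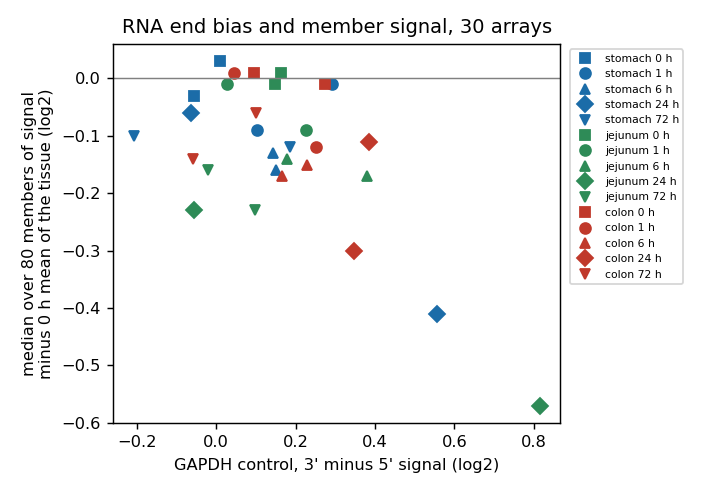
Median change of the 80 genes from the 0 h mean of the tissue (log2, vertical axis) against the log2 difference of the GAPDH 3′ and 5′ control signals (horizontal axis), a point for each of the 30 arrays. The first 24 h arrays of jejunum and stomach lie farthest to the right, at 0.816 and 0.557, and lowest, at -0.57 and -0.41.

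By complex the jejunum medians at 24 h were -0.50 for complex I, -0.23 for II, -0.35 for III, -0.18 for IV and -0.45 for V. Unadjusted p values under 0.05 were reached by 30 of 35 genes of complex I, 2 of 4 of complex II, 8 of 8 of complex III, 6 of 17 of complex IV and 12 of 16 of complex V. In colon complex IV also had the smallest median, -0.04, against -0.22 for I, -0.22 for II, -0.24 for III and -0.27 for V. Its dim probe sets, named above for 6 h, lay there between -0.13 (Cox5a) and 1.25 (Cox6a2). The brighter complex IV genes lay between -0.37 (Cox7b) and 0 (Cox7a1), so the small median is not shown to be a trait of the whole complex. Stomach medians were -0.22, -0.42, -0.21, -0.19 and -0.30 for complexes I to V. Differences between complexes were not tested.

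In complex I the jejunal values at 24 h fell just short of the threshold for several genes. Ndufc1, a small membrane subunit, had signals of 10.69 and 10.80 at 24 h and 11.17 and 11.20 at 0 h, a difference of -0.44 ± 0.077 (limma, adjusted p = 0.057). Ndufa9, which contacts the quinone-binding region, had 10.29 and 10.73 at 24 h and 11.23 and 11.10 at 0 h, a difference of -0.66 ± 0.14 (adjusted p = 0.09). Both treated arrays of each gene lay under both untreated ones. Ndufb10, of the membrane arm, had 9.53 and 10.36 at 24 h and 10.93 and 10.66 at 0 h (-0.85 ± 0.23, adjusted p = 0.137), and Ndufs8, an iron-sulfur subunit, 8.72 and 9.65 at 24 h and 10.12 and 9.85 at 0 h (-0.79 ± 0.25, adjusted p = 0.18). For these the first array lay far below the second. Ndufv1, the NADH-binding subunit, differed by -0.53 (adjusted p = 0.116), Ndufv2 by -0.54 (0.0824) and Ndufb5 by -0.38 (0.081).

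In the other complexes Sdhb had signals of 11.39 and 12.39 at 24 h and 12.63 and 12.62 at 0 h in jejunum, and the difference of -0.73 ± 0.26 had an adjusted p of 0.221. Atp5f1a, the α subunit of ATP synthase, had 11.72 and 12.49 at 24 h and 12.64 and 12.41 at 0 h, so its groups overlapped (-0.43, adjusted p = 0.347). In both genes the first array lay far below the second. Core subunits of complex III, Uqcrfs1 (the Rieske iron-sulfur protein), Cyc1 and Uqcrc1, differed by -0.47, -0.47 and -0.29 (adjusted p = 0.177, 0.12 and 0.164). Cox4i1, the main subunit 4 of complex IV, differed by -0.21 (0.367), Cox6b1 by -0.39 (0.2) and the catalytic β subunit Atp5f1b by -0.20 (0.284). A second probe set did not always give the same size: for Sdhd it read -0.48 against -0.08 on the brighter one, and for the core subunit Uqcrc2 -1.21 (adjusted p = 0.249) against -0.51.

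Leaving out an array decided how many jejunal genes passed at 24 h. Without the first 24 h array 3 members were called, 1 higher and 2 lower (2.67% of all probe sets), with a median of -0.23. Without the second array, so that the array with the GAPDH gap stood alone, 54 were called, 1 higher and 53 lower (16.5% of all probe sets), with a median of -0.57. In stomach the median at 24 h was -0.06 without the first array, and without the second 4 members were called. The members with the smallest p there were Sdha, with 10.99 and 11.22 at 24 h and 11.61 and 11.50 at 0 h (-0.45 ± 0.11, adjusted p = 0.571), and Ndufs1, with 9.79 and 10.11 at 24 h and 10.63 and 10.67 at 0 h (-0.70 ± 0.17, adjusted p = 0.571). Neither overlapped between the times. In colon Ndufa12, an accessory subunit of the NADH arm, had 10.27 and 10.68 at 24 h and 10.99 and 10.98 at 0 h (-0.51 ± 0.14, adjusted p = 0.116).

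**Figure D4:**
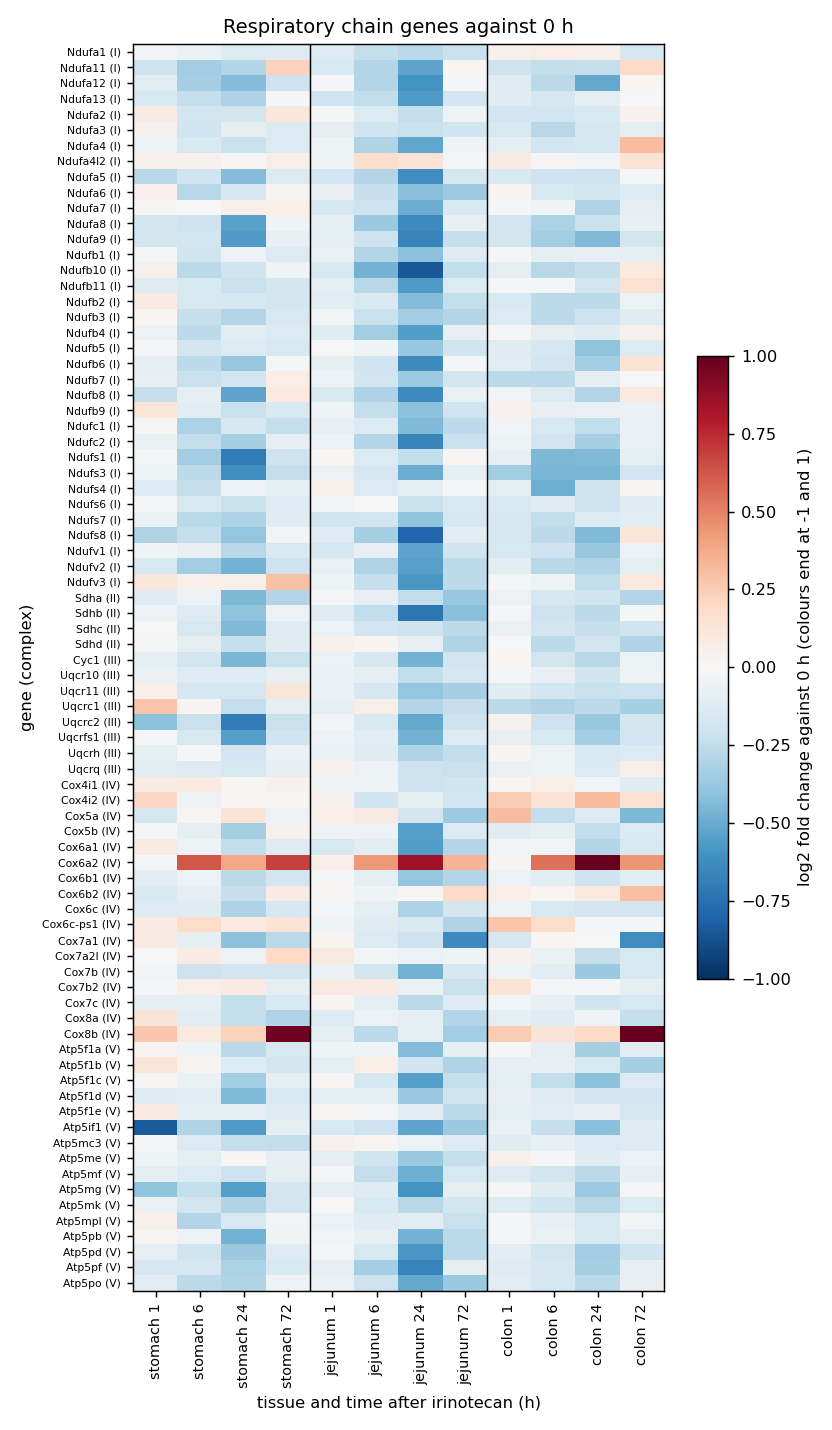
Log2 fold change from 0 h of the 80 genes, grouped by complex, in stomach, jejunum and colon at 1, 6, 24 and 72 h, each cell a mean of 2 arrays minus the mean of 2 untreated arrays, with colours that end at ±1. Blue cells fill most of complexes I and V in jejunum at 24 h, where the medians were -0.50 and -0.45 and Cox6a2 stands out above 0. Cox8b stands out above 0 at 72 h in stomach (0.97) and colon (1.76), and lies below 0 in jejunum.

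The muscle isoform of subunit 6a of complex IV went the other way. Cox6a2 had signals in jejunum of 8.24 and 7.91 at 24 h and 7.20 and 7.27 at 0 h, and rose by 0.84 ± 0.12, a fold change of 1.79 (limma, adjusted p = 0.0326). It was the only member called in jejunum at 24 h, where 0.319% of all probe sets were called higher. At 6 h it read 7.69 and 7.64 (0.43 ± 0.12, adjusted p = 0.0948) and at 72 h 7.44 and 7.71. Both treated arrays of 6 h, 24 h and 72 h lay above both untreated arrays. The ubiquitous isoform Cox6a1 differed by -0.56 in jejunum at 24 h (adjusted p = 0.23). The call for Cox6a2 was lost in a fit of all 30 arrays (adjusted p = 0.35), with array weights (0.099) and without either 0 h array (0.254 and 0.272), and without the array with the GAPDH gap it stood at 0.67 (adjusted p = 0.0135).

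In colon Cox6a2 read 7.29 and 8.36 at 24 h and 6.57 and 6.59 at 0 h, a difference of 1.25 ± 0.28 (adjusted p = 0.0701). It passed with array weights (0.0469) and without the first array (1.78, 0.0143). On the second array, which carried the higher value, 6 of 8 enterocyte genes had their highest colon signal, with a list median of 9.48, and the part of those cells was not tested. The colon arrays read 6.69 and 6.52 at 1 h, 7.39 and 6.88 at 6 h and 7.00 and 7.03 at 72 h, so those of 6, 24 and 72 h lay above both untreated arrays. In stomach the arrays read 7.53 and 7.87 at 0 h, 7.07 and 8.29 at 1 h, 8.09 and 8.55 at 6 h, 7.55 and 8.63 at 24 h and 8.16 and 8.58 at 72 h, with replicates far apart at 1 and 24 h. The striated muscle list, whose fibres are known for Cox6a2, had medians of 6.29 to 6.66 over the jejunum arrays, 6.33 to 6.58 in colon and 6.65 to 9.07 in stomach. In jejunum at 24 h 0 of its 9 genes were called, beside 0.409% of all probe sets. Its summed log2 signal was 12.81 and 12.22 at 24 h and 12.23 and 12.23 at 0 h. Most of that sum was Myh1, with 12.59 and 11.91 at 24 h and 11.91 and 11.97 at 0 h. Myh1 was also bright in untreated stomach (11.46 and 11.23) and colon (11.64 and 11.48), so the sum says little about striated muscle.

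**Figure D5:**
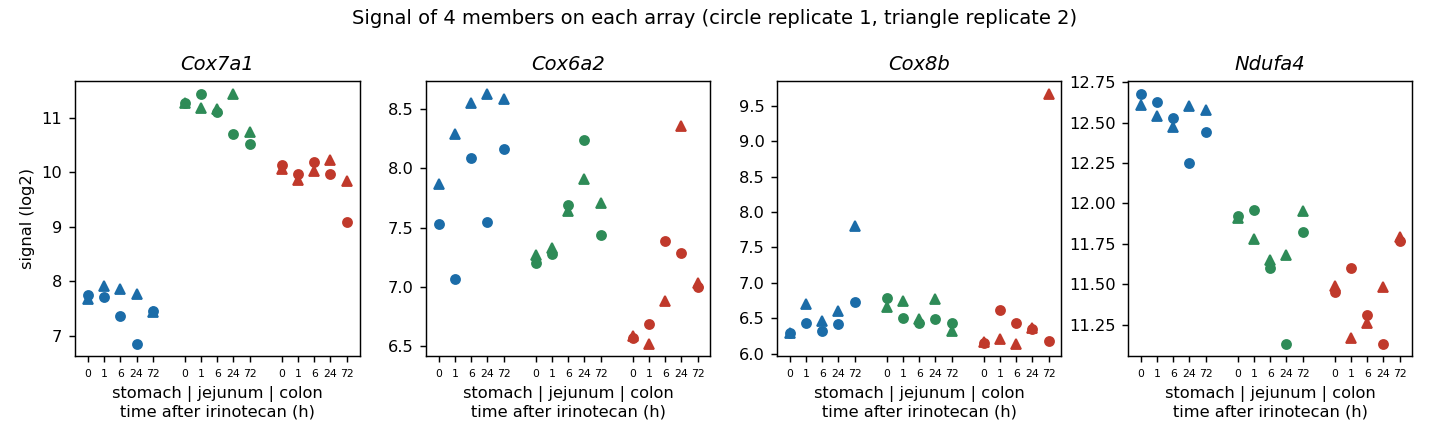
Log2 signals of Cox7a1, Cox6a2, Cox8b and Ndufa4 on each of the 30 arrays, by tissue and hours after irinotecan, with 2 arrays at each time. Cox6a2 in jejunum peaks at 24 h with 8.24 and 7.91, and Cox8b stays between 6.14 and 6.62 in colon except for an array at 72 h with 9.67.

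At 72 h jejunum was the tissue with calls. There 9 members fell, and 0 were called higher, but this was no excess: 12% of all probe sets were called lower and 23.9% in either direction. At an unadjusted p under 0.05 limma gave 23 members, beside 39.9% of all probe sets. The median difference was -0.20, against -0.07 over all probe sets, 76 of 80 genes lay below 0 (59.4% of all probe sets), and 65 had both treated arrays under both untreated ones (43.8%). Medians by complex were -0.17 for I, -0.34 for II, -0.22 for III, -0.20 for IV and -0.23 for V.

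Complexes IV and II supplied the smallest p values. Cox8a, the ubiquitous subunit 8, had signals of 12.12 and 12.20 at 72 h and 12.43 and 12.47 at 0 h, and fell to 0.818 of the untreated level (-0.29 ± 0.074, limma adjusted p = 0.0246). Sdha had 11.55 and 11.67 at 72 h and 12.09 and 11.89 at 0 h, and fell to 0.768 (-0.38 ± 0.099, adjusted p = 0.0255). Cox7a1 had 10.52 and 10.73 at 72 h and 11.27 and 11.27 at 0 h, and fell to 0.641, the largest change among the 9 (-0.64 ± 0.20, adjusted p = 0.0495). No array of the treated group reached an untreated one for these genes. Cox6c-ps1, a pseudogene of subunit 6c whose probe set may read its parent, fell by 0.30 on the log2 scale (adjusted p = 0.0472).

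Complexes I, III and V contributed the others. Ndufb3, an accessory subunit of the membrane arm, had 11.60 and 11.73 at 72 h and 11.98 and 11.94 at 0 h (-0.29 ± 0.077, adjusted p = 0.0265), and Ndufc1 10.89 and 10.97 at 72 h and 11.17 and 11.20 at 0 h (-0.26 ± 0.077, adjusted p = 0.0396). In complex III Uqcr11, a small subunit, had 11.17 and 11.26 at 72 h and 11.52 and 11.57 at 0 h (-0.33 ± 0.087, adjusted p = 0.0272), and Uqcrh, the hinge protein beside cytochrome c1, 12.07 and 12.17 at 72 h and 12.38 and 12.35 at 0 h (-0.25 ± 0.079, adjusted p = 0.0498). In complex V Atp5f1b, the catalytic subunit, had 12.70 and 12.75 at 72 h and 13.07 and 12.98 at 0 h (-0.30 ± 0.084, adjusted p = 0.033). The treated arrays lay below the untreated ones in all 5, by small amounts that the replicates shared.

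Other core subunits did not pass in jejunum at 72 h. Sdhb had 12.08 and 12.32 at 72 h and 12.63 and 12.62 at 0 h (-0.42 ± 0.26, adjusted p = 0.252), Uqcrc1 differed by -0.23 (0.0871), Cyc1 by -0.19 (0.246), Cox4i1 by -0.20 (0.191), Ndufv1 by -0.20 (0.267), Ndufa9 by -0.23 (0.257), Atp5f1a by -0.10 (0.734) and Ndufs1 by 0.01 (0.934). The 9 calls rested on few arrays: leaving out any of the 4 arrays of 0 h or 72 h left 0 or 1, and trend and robust variances left 2. Leaving out the first 24 h array gave 27, of which 26 were lower, beside 20.2% of all probe sets called lower and 37.8% in either direction, so the comparison with the share over all probe sets depended on that array. Markers of other cells moved in the same comparison, in which 3692 of all 31042 probe sets were called higher and 3713 lower. Of 12 genes of dividing cells 10 were called higher, with summed log2 signals of 12.91 and 12.91 at 72 h and 12.31 and 12.12 at 0 h. Of 12 macrophage genes 4 were called higher and 1 lower (14.06 and 14.11 at 72 h, 13.68 and 13.79 at 0 h). Most of the macrophage sum was Lyz2, with 13.60 and 13.76 at 72 h and 13.44 and 13.52 at 0 h. The macrophage list medians were 8.16 and 8.02 at 72 h and 7.13 and 7.20 at 0 h. Smooth muscle gave 3 of 10 higher (14.65 and 14.74 at 72 h, 13.92 and 14.13 at 0 h), while 0 of 8 enterocyte genes were called (16.27 and 16.11 at 72 h, 16.29 and 16.29 at 0 h). The part of these cells in the members' values was not tested.

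Stomach and colon gave no call at 72 h, beside 0.00644% and 1.32% of all probe sets, with 5 and 9 members at an unadjusted p under 0.05 (7.56% and 17.2%). The median difference was -0.12 in stomach and -0.09 in colon, with 63 and 61 of 80 genes below 0, beside 60.7% and 53.5% of all probe sets. In colon Uqcrc1 and Atp5f1b had the smallest p, both at -0.33 (adjusted p = 0.147 and 0.153). Cox7a1 had signals of 9.09 and 9.84 at 72 h and 10.13 and 10.05 at 0 h, a difference of -0.62 ± 0.20 (adjusted p = 0.154). Both treated arrays lay below, the first by far more. Without the second 72 h array, which carried the pancreatic transcripts, the difference was -1.0 (adjusted p = 0.0158).

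Cox8b, the subunit 8 isoform of muscle and brown fat in rodents, was high on single arrays at 72 h. In colon it read 6.18 and 9.67 at 72 h and 6.16 and 6.17 at 0 h, and the difference of 1.76 ± 0.78 had an adjusted p of 0.282. The second array alone was high, and all other colon arrays lay between 6.14 and 6.62. On that array 6 of 7 adipocyte genes and 14 of 14 acinar genes had their highest colon signal, with list medians of 9.35 and 11.91. In stomach Cox8b read 6.73 and 7.81 at 72 h and 6.29 and 6.30 at 0 h (0.97 ± 0.29, adjusted p = 0.656), and without the first array the difference was 1.52 (adjusted p = 0.00466). On the second stomach array 6 of 9 striated muscle genes and 7 of 8 squamous epithelial genes were at their highest stomach signal. The part of these cells in Cox8b was not tested.

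Set against 24 h, the members at 72 h were higher at the median in each tissue and few passed. The medians were 0.15 in stomach, 0.19 in jejunum and 0.15 in colon, against -0.06, -0.06 and -0.05 over all probe sets. Because most probe sets are dimmer than the members, this contrast does not set the members apart from other bright probe sets. Limma called 0 members in stomach (0.00322% of all probe sets), 1 in jejunum, lower (12.9%), and 1 in colon, higher (6.73%), with 7, 27 and 13 members at an unadjusted p under 0.05, beside 15%, 31.3% and 26.4%. The jejunal call was Cox6a2, which fell by 0.50 ± 0.12 on the log2 scale (adjusted p = 0.0301), a call lost in a fit of all 30 arrays (0.386), with array weights (0.0785), without the first 72 h array (-0.37, 0.194) and without the array with the GAPDH gap (-0.33, 0.0764). The colon call was Ndufa12, with 10.93 and 11.08 at 72 h and 10.27 and 10.68 at 24 h (0.53 ± 0.14, adjusted p = 0.0493). The arrays did not overlap, but the adjusted p lay between 0.0531 and 0.189 with trend and robust variances, quantile normalization, all 30 arrays, array weights or without the arrays with pancreatic transcripts, and without the first 24 h array the difference was 0.32 (0.282). In stomach Ndufs1 differed by 0.49 and Ndufa11 by 0.51 (adjusted p = 0.309 each). Without the second 24 h array of jejunum 45 members were called, 42 higher and 3 lower, and without the first the median was 0.04. Without the first 24 h array the median was -0.03 in stomach and 0.02 in colon, so the higher medians rested on those arrays.

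With all arrays no member's change from 0 h differed between the 3 tissues past the threshold. The limma F test of the tissue difference called 0 of 80 members at 1 h (0.00322% of all probe sets), 6 h (0.251%), 24 h (0.229%) and 72 h (2.28%), and at an unadjusted p under 0.05 it gave 1, 0, 3 and 1 members, beside 9.07%, 13.7%, 13.2% and 19.6% of all probe sets. At 24 h the smallest p was that of Ndufa7, an accessory subunit, whose changes were 0.06 in stomach, -0.50 in jejunum and -0.30 in colon (adjusted p = 0.27). At 72 h it was Uqcr11, with 0.12 in stomach, -0.33 in jejunum and -0.21 in colon (adjusted p = 0.0982), and it passed without the arrays with a GAPDH gap (0.0427) and with array weights (0.041). Cox8b was called at 72 h without the first colon array of that time, which leaves the array with the high colon signal alone, and also without the arrays with pancreatic transcripts (adjusted p = 0.000193), which leaves out that colon array and keeps the stomach array with 7.81. Cox7a2l passed without the arrays with pancreatic transcripts too (adjusted p = 0.0286). The tissues of a time share rats, which this test does not take into account. The larger median in jejunum at 24 h is therefore not shown to differ from those of the other tissues for any single gene.

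In jejunum some of the factors that build the complexes passed the threshold. Of 43 measured assembly factors 4 fell at 6 h, where 3.49% of all probe sets were called. They were Cox20, a complex IV factor (-0.46, limma adjusted p = 0.0194), Sdhaf3, which helps mature the iron-sulfur subunit of complex II (-0.40, 0.0278), Coa4 (-0.55, 0.0309) and Ndufaf8 (-0.39, 0.0464). Their median was -0.18, and it was -0.22 at 24 h, when Sdhaf3 alone was called (-0.46, 0.0484). Without the array with the GAPDH gap 1 factor was called higher and 11 lower at 6 h, beside 8.22% and 5.4% of all probe sets. At 72 h 4 were called higher and 2 lower, a smaller share than the 23.9% of all probe sets called, with a median of 0.10. Without that array the counts at 72 h were 8 higher and 3 lower, beside 37.8% of all probe sets. Ndufaf4, a complex I assembly factor, rose by 0.66 (adjusted p = 0.00365), Coa5 by 0.45 (0.013), Coa7 by 0.45 (0.0329) and Ndufaf7, a methyltransferase for complex I, by 0.41 (0.015), while Cox20 fell by 0.36 (0.013) and the complex III factor Ttc19 by 0.37 (0.0454).

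Between 72 h and 24 h 17 of the 43 assembly factors were called higher in jejunum and 0 lower, beside 8.77% of all probe sets called higher, with a median of 0.32 against -0.06 over all probe sets. The rises were 0.81 for Ndufaf4 (adjusted p = 0.00245), 0.57 for Sdhaf3 (0.0031), 0.70 for Lrpprc, which stabilizes mitochondrial messenger RNA (0.00337), and 0.61 for Ndufaf7 (0.00453). The array with the GAPDH gap is 1 of the 2 arrays of 24 h here. Without it 14 factors were called higher and 0 lower, beside 9.56% of all probe sets called higher, with a median of 0.29, and Ndufaf4 stood at 0.90 (adjusted p = 0.000863). In colon 3 factors rose between these times, Ndufaf4 by 0.80 (0.0203), Sdhaf3 by 0.49 (0.0207) and Cox16 by 0.55 (0.0441), a share near the 6.73% of all probe sets called. Genes of dividing cells moved in the same comparisons. In jejunum 11 of 12 were called higher at 72 h than at 24 h, with summed log2 signals of 12.91 and 12.91 at 72 h and 12.03 and 12.04 at 24 h, and in colon 11 of 12, with 12.55 and 12.45 at 72 h and 11.12 and 11.22 at 24 h. Their part in the values of the assembly factors was not tested.

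Of 18 regulators of mitochondrial biogenesis limma called 4 in jejunum at 6 h, 3 of them lower, beside 3.49% of all probe sets, and 13 at 72 h. In jejunum at 6 h Tfam, which packages and transcribes mitochondrial DNA, fell by 0.59 (adjusted p = 0.0163), Tfb1m, which modifies mitochondrial ribosomal RNA, by 0.38 (0.0334) and the receptor Esrrg by 0.59 (0.0318), and Hif1a, the oxygen-sensing factor, rose by 0.57 (0.0215). At 72 h 9 regulators were called higher and 4 lower, beside 23.9% of all probe sets called, with a list median of 0.27 against -0.07. Tfam rose by 0.53 (adjusted p = 0.00651), the mitochondrial DNA polymerase gene Polg by 0.52 (0.0054), Hif1a by 0.67 (0.0035) and the coactivator gene Pprc1 by 0.83 (0.0129). The 4 that fell were the receptors Esrra (-0.54, 0.00462) and Esrrg (-0.65, 0.00718) and the coactivators Ppargc1a (-0.61, 0.00723) and Ppargc1b (-1.23, 0.0122), which are known to drive respiratory chain genes. Without the array with the GAPDH gap the counts were 10 higher and 4 lower, beside 37.8% of all probe sets. In colon Esrrg fell by 1.44 at 6 h (limma adjusted p = 0.013), where 1.19% of all probe sets were called. Stomach gave 0 calls against 0 h in either list. The genes of dividing cells that rose in jejunum at 72 h, given above, moved in the same comparison, and their part in these values was not tested.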

How the data were processed

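Gene expression was measured with 30 Affymetrix arrays, 2 for each of 3 tissues at 5 times, and groups came from the sample titles. The deposited values are log2 signals that the authors made with RMA, per the submitters' processing notes, with no version given in the sources used here. RMA equalizes the distributions of arrays processed together, so a shift shared by most transcripts cannot be seen. Array medians lay between 6.965 and 7.055 and no further scaling was applied. No array column of another series was present (0). Values are relative brightness without counts, so the number of arrays limits the precision.

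Of 31099 probe sets 57 controls were left out and 31042 tested with limma 3.58.1 in R 4.3.3 (lmFit and eBayes, two-sided, Benjamini-Hochberg over all 31042, threshold 0.05). The 5 times of a tissue were fitted together. Untreated tissues and tissue differences in response came from a fit of all 30 arrays. Errors are standard errors from limma. All 80 members matched RefSeq's gene table with 0 changed symbols, and 8 had more than 1 probe set. The code was tested on simulated data. Members, gene lists and rules for arrays were chosen with earlier results of these data known. The rule for named genes took the 8 highest and 8 lowest changes among members called, or the 3 with the smallest p, together with core subunits and tissue isoforms.

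The alternatives were another scaling, a brightness filter, another variance model, other arrays in the fit, array weights, the mean of a gene's probe sets, leaving out arrays, and a replicate block. Equal replicate numbers were checked for pairing: their deviations correlated between tissues by 0.32, 0.36 and 0.50 at 24 h and by -0.22 to 0.39 at the other times. As not every pair was above 0.1, the numbers were not taken to pair arrays, and the tests between tissues treat arrays as independent although the tissues share rats. The pathway lists were also counted without the arrays with a GAPDH gap, an alternative chosen after seeing the data.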

Additional observations from a re-analysis of the deposited data

How the results depend on the processing

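Of 308 counts of members under alternatives 240 stayed within 1.5 times the reported count and 68 did not, and of 1426 values of 100 results of single members 1238 stayed on their side of the threshold, 170 lost it, 18 gained it and 0 changed sign. Leaving out the arrays with a GAPDH gap gave 8 calls in jejunum at 6 h, 3 at 24 h and 27 at 72 h, 2 for jejunum 72 h against 24 h, 23 for untreated stomach against jejunum, 26 for jejunum against colon and 1 for the tissue difference at 72 h. Array weights gave 4, 0 and 27 in jejunum at 6, 24 and 72 h, 1 in colon at 6 h and 1 at 24 h, 0 for 72 h against 24 h in jejunum and 0 in colon, 26 for untreated stomach against jejunum and 31 for jejunum against colon, and 1 for the tissue difference at 72 h. Leaving out the arrays with pancreatic transcripts gave 1 in stomach at 72 h, 1 in colon at 72 h, 1 for stomach 72 h against 24 h and 2 for the tissue difference at 72 h. A fit of all 30 arrays gave 0 in jejunum at 24 h, 1 in colon at 6 h, 1 in colon at 24 h, and for 72 h against 24 h 2 in jejunum and 0 in colon. Trend and robust variances gave 2 in jejunum at 72 h and 0 for colon 72 h against 24 h, quantile normalization gave 2 and 0 for 72 h against 24 h in jejunum and colon, and the mean of a gene's probe sets gave 2 for colon 72 h against 24 h. The cause of these differences was not tested.

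With the replicate block, although the numbers were not shown to pair arrays, 0 members were called in jejunum at 24 h, 5 in jejunum at 72 h, and 0 for 72 h against 24 h in jejunum and 0 in colon, and untreated tissues gave 13, 17 and 14 calls.

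Leaving out each array of the groups compared in turn gave 0 to 4 calls in stomach at 24 h, 0 to 1 in stomach at 72 h, 0 to 54 in jejunum at 24 h, 0 to 1 in jejunum at 72 h, 0 to 2 in colon at 24 h and 0 to 1 in colon at 72 h. For 72 h against 24 h the range was 0 to 2 in stomach, 0 to 45 in jejunum and 1 to 10 in colon, for untreated tissues 6 to 9 (stomach against jejunum), 7 to 13 (stomach against colon) and 3 to 6 (jejunum against colon), and for the tissue difference at 72 h 0 to 1. A group with an array left out holds 1 array, which is assumed to vary like the other groups. The jejunum has no array with pancreatic transcripts, so that alternative gave no value there. With 2 pools a group and wide differences between the 24 h pools, small changes could not be told from spread.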

Other observations

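Fuel supply around the respiratory chain was followed in gene lists that were written with earlier results of these data known. Of 15 measured genes of pyruvate dehydrogenase and the citric acid cycle 4 fell in jejunum at 72 h and 0 rose, beside 23.9% of all probe sets called and 12% called lower, with a list median of -0.31 against -0.07 over all probe sets. They were Sucla2, a subunit of succinyl-CoA synthetase (-0.45, limma adjusted p = 0.00829), Ogdh and Dlst, subunits of the 2-oxoglutarate dehydrogenase complex (-0.43, 0.0421 and -0.47, 0.0487), and Pdhb of pyruvate dehydrogenase (-0.34, 0.0466). Without the array with a GAPDH gap 9 of the 15 were called lower and 0 higher, beside 20.2% of all probe sets called lower. In colon Idh2, the mitochondrial isocitrate dehydrogenase that yields NADPH, fell by 0.57 at 6 h (adjusted p = 0.0309) and Suclg2 by 0.66 at 24 h (0.04). Stomach gave 0 calls.

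Of 13 measured glycolysis genes 3 rose and 1 fell in jejunum at 72 h, beside 23.9% of all probe sets called, a share near that of the list, with a list median of 0.05. Hk2 and Hk1, hexokinases that bind mitochondria, rose by 1.09 (limma adjusted p = 0.002) and 0.91 (0.00226), and the glucose transporter gene Slc2a1 by 0.95 (0.00207), while Ldha, a subunit of lactate dehydrogenase, fell by 0.34 (0.013). In colon Hk2 fell by 1.34 at 24 h (adjusted p = 0.0414) and stood higher by 1.38 at 72 h than at 24 h (0.0175). Of 14 carriers and porins Slc25a4, the ADP/ATP carrier of heart and muscle, rose by 0.97 (adjusted p = 0.00254) and the aspartate/glutamate carrier gene Slc25a13 by 0.46 (0.0176) in jejunum at 72 h. This was no excess beside the 23.9% of all probe sets called. Without the array with a GAPDH gap 2 of the 14 were called higher and 3 lower, beside 37.8% called, with a list median of -0.16. Of 18 genes of mobile carriers and ubiquinone synthesis Coq8a fell by 0.57 in jejunum at 6 h (adjusted p = 0.0172), Gpd2, which feeds electrons to ubiquinone, fell by 0.76 in jejunum at 72 h (0.0355) and Coq6 fell by 0.60 in colon at 24 h (0.0414). In these comparisons 3.49%, 23.9% and 1.14% of all probe sets were called. Without the array with a GAPDH gap 6 of the 18 were called lower and 0 higher in jejunum at 6 h, beside 5.4% of all probe sets called lower, and 3 higher and 4 lower at 72 h, beside 37.8% called in either direction. In jejunum at 72 h 3 of 10 smooth muscle genes, 4 of 12 macrophage genes and 10 of 12 genes of dividing cells were called higher and 1 macrophage gene lower, and their part in these values was not tested.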
